A study of Rattus norvegicus with 9 samples.

Results

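Potassium-free medium and ouabain both stop the sodium pump of the cell, and the arrays described here set the one against the other in rat aortic smooth muscle cells. The members are the 3 arrays titled K_Free and the 3 titled Ouabain, 6 of the 9 arrays of the series, chosen by title with no use of a measured value, and every probe set on them was compared. The other 3 arrays come from control DMEM. They serve as a reference level and also enter the estimate of spread behind the p-values. All 9 cultures were rat aortic smooth muscle cells of 1 commercial source, grown in serum, made quiescent in low serum, rinsed with K+-free DMEM, and then kept for 6 hr in control DMEM, in K+-free DMEM, or in DMEM containing 3 mM ouabain. No strain is given in the labels. One legend of the study gives another unit for ouabain, and the labels were followed. The arrays are Affymetrix Rat Gene 1.0 ST, the values are log2 signals, and the 3 arrays of a group come from separate experiments on cells of 1 line, so the p-values measure the spread between these cultures. With 1 time point and 1 dose, a difference in kind between the treatments cannot be told apart from one in their course or strength.

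The Na+,K+-ATPase carries Na+ out of the cell and K+ into it. Ouabain, a plant steroid, binds the pump from outside and locks it, and the bound pump is also known as a docking site for signaling kinases. Withdrawal of external K+ leaves the pump unoccupied by drug but deprives it of the ion that it must take up, and is known to alter membrane potential as well. Cells of rats and mice are known to need high concentrations of ouabain. Cells loaded with Na+ and depleted of K+ answer with large changes in transcription. NF-kB, the factor that drives many cytokine and survival genes, is held in the cytosol by IkB proteins until these are degraded. NRF2 drives genes of glutathione synthesis, quinone reduction and iron and heme handling through antioxidant response elements.

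Markers of several cell types were examined. Signals averaged over 20 contractile genes of smooth muscle lay between 9.39 and 9.50 on the ouabain arrays and between 9.59 and 9.62 on the K+-free arrays, both under the 9.91 to 9.93 of control cells and above array medians of 6.76 to 6.80, and *Tagln*, a calponin-like actin binding protein of smooth muscle, averaged 13.4 and 13.5. Endothelial markers stayed mostly under the array median, in 6 of 9 genes in ouabain and 7 in K+-free medium. Of 12 macrophage markers 10 lay under it in both groups, with *Ptprc*, *Adgre1*, *Itgam* and *Aif1* between 5.41 and 5.80, whereas *Cd14* and *Cd68*, which other cells also express, were higher in ouabain (1.79-fold and 1.28-fold, adjusted p = 2.64e-04 and 0.00372, the latter 0.0664 by the methods' t-test). The log2 of the summed macrophage signal was 10.4 to 10.5 in ouabain, 9.95 to 10.1 in K+-free medium and 9.61 to 9.71 in control cells, and the part of this in other results was not tested. Of 12 fibroblast markers 6 lay above the array median, and the log2 of their summed signal was 14.39 to 14.54 in ouabain, 14.53 to 14.57 in K+-free medium and 14.35 to 14.38 in control cells. *Col1a1* (13.05 in either treatment), *Lum* (13.0 and 13.1 in ouabain and K+-free medium), *Thy1* (11.4 and 11.5) and *S100a4* (11.02 and 10.97) were strongly expressed, while *Dcn*, *Cd34*, *Pi16* and *Dpt* lay between 5.19 and 6.04, and smooth muscle cells in culture also make several of these products. In bulk RNA, fewer cells of a type and less RNA per cell cannot be told apart.

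Gene expression separated the treatments along a single axis. In a principal component analysis of the 6 arrays, component 1 carried 69.7% of the variance and placed the ouabain arrays at -23.4 to -22.9 and the K+-free arrays at 22.9 to 23.3. Signals of any K+-free array nevertheless correlated with those of any ouabain array at 0.989 to 0.990 across probe sets, which are not independent replicates. A difference was counted at a Benjamini-Hochberg adjusted p (limma) under 0.05 and a fold above 1.2. By this measure 8.45% of 27342 probe sets were higher in K+-free medium and 7.97% higher in ouabain. Counted as genes, with 1 probe set for each of 14324 symbols, 1562 (10.9%) were higher in K+-free medium and 1530 (10.7%) higher in ouabain. These shares are the background against which counts of single gene groups are read below. In 3073 of the 3092 genes that passed, the K+-free and ouabain arrays did not overlap, as was the case for 40.0% of all genes.

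The balance between the directions was lost as the differences grew. Above 2-fold there were 144 genes higher in K+-free medium and 48 higher in ouabain, above 3-fold 61 and 4, above 4-fold 31 and 1, and above 8-fold 13 and 0. The list of NF-kB targets supplied 44 of the 144 genes above 2-fold and 23 of the 31 above 4-fold. Setting that list aside, 100 genes remained above 2-fold in K+-free medium, 29 above 3-fold and 8 above 4-fold. The largest difference toward K+-free medium was 6.80 on the log2 scale and the largest toward ouabain -2.08, while the medians of the genes that passed were close in size (0.44 and -0.43).

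**Figure D1:**
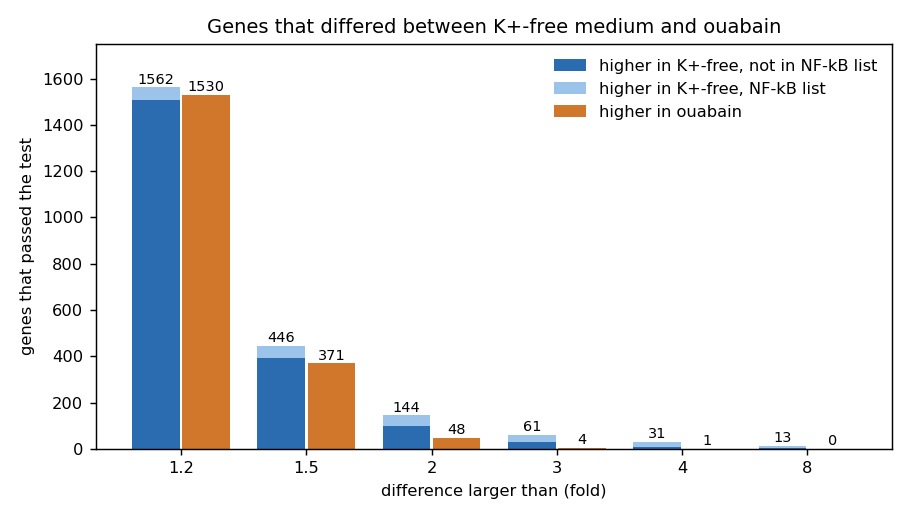
Number of genes (vertical axis) whose signal differed between K+-free medium and ouabain at an adjusted p under 0.05 and by more than the fold on the horizontal axis. Bars for K+-free medium are divided into genes outside and inside the NF-kB list. At 1.2-fold the directions are nearly equal (1562 and 1530), whereas above 2-fold 144 genes were higher in K+-free medium and 48 in ouabain.

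NF-kB targets are named here only for scale. Of 70 measured, 54 were higher in K+-free medium and none in ouabain, with a median difference of 1.53 on the log2 scale against -0.01 over all genes. *Cxcl2*, a chemokine for neutrophils, read 5.95, 5.65 and 6.10 on the ouabain arrays and 12.71, 12.64 and 12.76 on the K+-free arrays. *Csf2*, which encodes a colony-stimulating factor for granulocytes and macrophages, read 5.21, 5.41 and 5.28 in ouabain and 10.15, 10.07 and 10.14 in K+-free medium. No array of one treatment came near the range of the other for either gene. The list was written with earlier results of these arrays known, so its direction is no independent evidence.

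Outside that list the largest difference belonged to *Bmp6*, a ligand of the BMP receptors. Its signals were 6.46, 6.31 and 6.64 in ouabain and 10.35, 10.31 and 10.38 in K+-free medium, and the groups lay 3.88 log2 units apart (SE 0.086, adjusted p = 4.17e-10). *Gbp5*, a guanylate-binding GTPase of the interferon-induced family, read 8.18, 8.25 and 8.32 in ouabain and 11.67, 11.73 and 11.74 in K+-free medium, a ratio of 11 (adjusted p = 4.37e-11). The control mean of *Gbp5* was 8.41, so that ouabain left it near the level of control cells. Other secreted products followed. *Ccl9*, a chemokine for myeloid cells, read 6.26, 6.23 and 6.47 and 9.13, 9.15 and 8.94 in ouabain and K+-free medium, 6.74-fold apart (adjusted p = 3.42e-09). *Pla2g2a*, a secreted phospholipase that releases fatty acids from membranes, read 5.99, 6.13 and 6.10 and 8.46, 8.37 and 8.16 in the same order, 4.77-fold apart (adjusted p = 2.46e-08). For both genes the ouabain arrays lay under the array median, where background may compress a difference.

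Receptors and regulators of signaling formed a further group. *Fas*, the death receptor, read 9.48, 9.53 and 9.60 in ouabain and 11.49, 11.50 and 11.51 in K+-free medium, with a difference of 1.96 (SE 0.052, adjusted p = 1.46e-09). *Cish*, an inhibitor of cytokine receptor signaling, read 6.19, 6.84 and 6.85 in ouabain, where 1 array lay below the others, and 9.24, 9.29 and 9.26 in K+-free medium (6.20-fold, adjusted p = 4.00e-07). *Rhob*, a small GTPase of the endosome and the actin skeleton, differed 3.76-fold, with ouabain arrays at 9.96, 9.85 and 9.75 and K+-free arrays at 11.79, 11.80 and 11.71. *Cyria*, which binds the GTPase Rac1, differed 5.34-fold, and *Hivep3*, a zinc finger protein that recognises kappaB-like sequences, 4.81-fold (adjusted p = 1.60e-08 and 8.84e-10). *Elf3*, an ETS factor known from epithelia, rose from a control mean of 5.17 to 7.10, 7.05 and 7.26 in K+-free medium but read 5.33, 5.15 and 5.39 in ouabain (3.60-fold apart). *Fas* and *Elf3* are known to answer NF-kB in other cells although the list does not hold them.

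Promoter sequence was read for the genes that stood furthest apart. RefSeq promoters of build GRCr8, from 250 bases before to 50 after the start site, were matched by gene identifier to 11806 of the 14324 genes. They were searched on either strand for 5 motifs. These were a kappaB motif (GGG and TTCC with any 3 bases between them), an AP-1 motif (TGANTCA), the cyclic AMP response element (TGACGTCA), an E-box (CACGTG) and an antioxidant response element (TGACNNNGC). The last of these can hold an AP-1 motif within it. Stretches upstream of the start site are shown for a few genes, chosen after their values were seen to show where the motifs lie, with motifs in capitals and the strand of the gene read 5′ to 3′. The kappaB motif is marked in *Gbp5* (chr2:233910875-233910944, + strand), *Ccl9* (chr10:68868944-68869013, - strand) and *Elf3* (chr13:49247191-49247260, - strand), which lie outside the NF-kB list and hold it there on the opposite strand, and in *Cxcl2* (chr14:17467270-17467359, - strand), which has 2 copies in the stretch shown. *Gbp5* and *Ccl9* each hold another copy after the start site, which is not printed.
Gbp5: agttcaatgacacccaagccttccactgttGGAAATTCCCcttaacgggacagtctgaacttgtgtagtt
Ccl9: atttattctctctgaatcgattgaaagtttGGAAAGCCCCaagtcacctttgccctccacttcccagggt
Elf3: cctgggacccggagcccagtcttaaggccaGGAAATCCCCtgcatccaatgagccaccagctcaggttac
Cxcl2: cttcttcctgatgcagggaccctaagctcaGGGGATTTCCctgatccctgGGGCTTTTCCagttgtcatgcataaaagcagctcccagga

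Enzymes and carriers completed the 15 largest differences outside the NF-kB list. *Gcnt2*, which branches the glycans of the I blood group antigen, differed 4.37-fold, and *St3gal3*, a sialyltransferase, 3.62-fold. *Ass1*, which makes the precursor from which arginine is regenerated, read 6.12, 5.84 and 5.99 in ouabain and 8.03, 7.89 and 8.0 in K+-free medium. *Slco2a1*, the carrier that takes prostaglandins into the cell, read 7.64, 7.50 and 7.52 and 9.49, 9.43 and 9.35, 3.65-fold apart (adjusted p = 6.54e-08). In each of these 4 genes the ouabain arrays lay below and the K+-free arrays above the control mean. Of the 15 genes, 7 had a mean in ouabain under the array median.

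**Figure D2:**
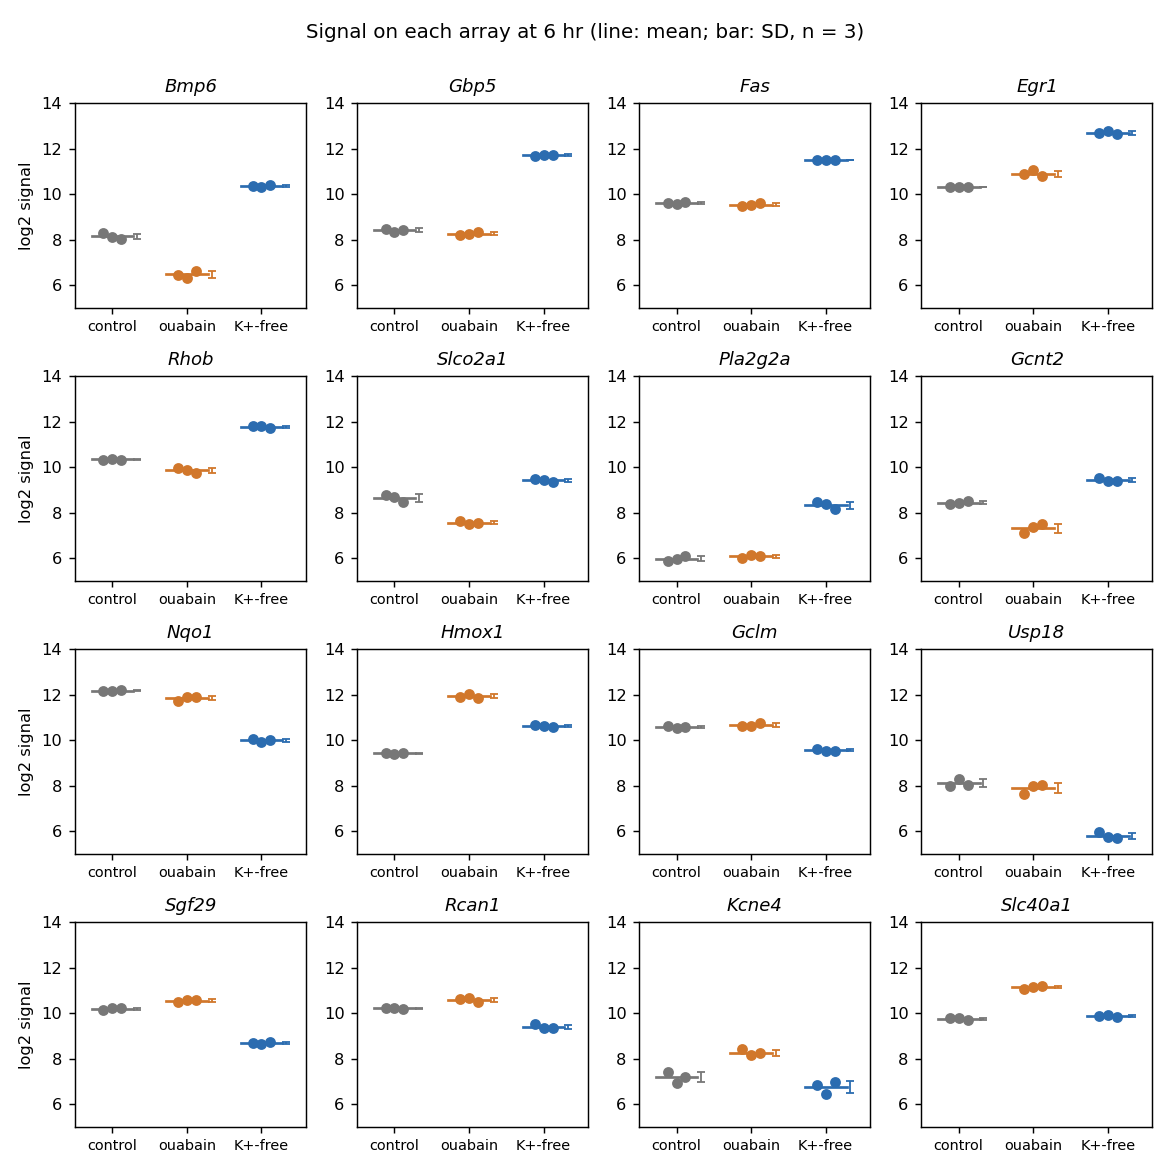
Log2 signal (vertical axis) on each of the 9 arrays for 16 genes, with control, ouabain and K+-free arrays side by side, lines at the means and bars for the SD of 3 arrays. Top rows hold genes higher in K+-free medium (*Bmp6* at 10.3 against 6.47), bottom rows genes higher in ouabain (*Nqo1* at 11.8 against 9.99). No K+-free array overlaps an ouabain array in any panel, which was a condition for naming most of these genes. It held for 40.0% of all genes.

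Immediate early genes, which encode the first transcription factors made after a stimulus, stood higher in K+-free medium in 20 of 28 cases and higher in ouabain in 2, with a median difference of 0.40. One of the 20, *Ier3*, is also in the NF-kB list. The Egr zinc finger factors *Egr2* and *Egr1* led. *Egr1* read 10.86, 11.04 and 10.78 in ouabain and 12.67, 12.76 and 12.63 in K+-free medium (3.46-fold, adjusted p = 2.70e-08), and *Egr2* read 6.84, 6.82 and 6.86 and 8.80, 8.55 and 8.67 (3.56-fold). *Egr3* differed 2.27-fold and the AP-1 subunit *Junb* 2.49-fold. Both treatments raised *Egr1* over control cells, by 2.36 log2 units for K+-free medium against 0.57 for ouabain. The exceptions, singled out after their values were seen, were *Crem*, a modulator of cyclic AMP responsive transcription (-0.67, adjusted p = 2.11e-04), and the orphan receptor *Nr4a2* (-0.34, adjusted p = 0.00520), both higher in ouabain.

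Inhibitors that act back on MAP kinases were higher in K+-free medium in 7 of 17 cases and in none higher in ouabain (median difference 0.01). The phosphatases *Dusp8* and *Dusp10* differed 2.01-fold and 1.88-fold, and the Sprouty proteins *Spry4* and *Spry1*, which restrain growth factor receptors, 1.73-fold and 1.70-fold. *Dusp8* read 7.97, 8.11 and 8.08 in ouabain and 9.11, 9.08 and 9.0 in K+-free medium, on either side of the control mean of 8.29. In the pathway of the EGF receptor 6 of 13 genes were higher in K+-free medium and none in ouabain (median 0.10). *Rhbdf2*, a partner of the sheddase ADAM17 that frees membrane-bound ligands, read 8.30, 8.40 and 8.32 in ouabain and 10.06, 10.10 and 10.08 in K+-free medium (3.34-fold, adjusted p = 1.76e-08). *Adam17* itself differed 1.56-fold. Targets of YAP and TAZ, coactivators that sense cell shape, were higher in K+-free medium in 6 of 17 cases, led by *Ankrd1* (1.99-fold) and *F3*, the tissue factor that starts coagulation (1.66-fold), with none higher in ouabain (median 0.05). Against control *Ankrd1* fell in both treatments (-0.60 in K+-free medium and -1.59 in ouabain), whereas *F3* rose in both (2.49 and 1.76).

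The list of HIF-1 targets divided, 8 of 31 being higher in K+-free medium and 6 in ouabain, with a median difference of -0.02. *Nos2*, the inducible nitric oxide synthase, which the NF-kB list also holds, read 6.46, 6.26 and 6.40 in ouabain and 8.59, 8.42 and 8.41 in K+-free medium (4.28-fold, adjusted p = 8.87e-09). *Adm*, the vasodilator adrenomedullin, read 9.65, 9.84 and 9.66 and 11.19, 11.24 and 11.16 (2.79-fold), and *Edn1*, the vasoconstrictor endothelin-1, 12.20, 12.17 and 12.13 and 13.14, 13.08 and 13.14 (1.93-fold). *Adm* and *Edn1* act on vessel tone in opposite ways and stood on the same side. *Egln3*, an oxygen-sensing prolyl hydroxylase, differed 3.34-fold. These are the 4 members with the largest differences, and all were higher in K+-free medium. The largest difference toward ouabain among HIF-1 targets was -0.48. By the methods' t-test, 3 and not 6 were higher in ouabain. Among p53 targets 10 of 23 were higher in K+-free medium and 4 in ouabain (median 0.08). *Gadd45a*, a stress sensor that halts the cell cycle, differed 2.46-fold, the kinase *Plk2* 2.07-fold and the cytokine *Gdf15* 2.04-fold, besides *Fas*. All of these were higher in K+-free medium, and the largest difference toward ouabain among p53 targets was -0.69.

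Antioxidant genes under NRF2 leaned toward ouabain. Of 36 measured, 11 (30.6%) were higher in ouabain and 3 (8.33%) in K+-free medium, with a median difference of -0.11. Against control, ouabain lowered 12 and raised 8 of the 36, and K+-free medium lowered 15 and raised 8. *Nqo1*, the quinone reductase, read 11.74, 11.91 and 11.87 in ouabain and 10.04, 9.93 and 10.00 in K+-free medium, a ratio of 3.61 (adjusted p = 6.07e-09). Its control mean was 12.2, so that K+-free medium lowered a high signal while ouabain changed it by -0.33. *Gclm*, the modifier subunit of the enzyme that limits glutathione synthesis, read 10.62, 10.62 and 10.75 in ouabain, near the control mean of 10.6, and 9.61, 9.54 and 9.53 in K+-free medium (2.15-fold, adjusted p = 2.22e-07). *Akr1b8*, an aldo-keto reductase, was lowered in both treatments and 2.24-fold higher in ouabain. Members named after their values were seen add the catalytic subunit *Gclc* (1.65-fold), sulfiredoxin *Srxn1* (1.40-fold) and thioredoxin reductase *Txnrd1* (1.37-fold), all higher in ouabain. *Nfe2l2*, the gene of NRF2 itself, differed by 0.20 (adjusted p = 0.0124) and did not pass the limits. The genes higher in K+-free medium were *Abcc1*, *Abcc4* and *Gsta1*, 2 export pumps and a glutathione transferase.

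Some genes higher in ouabain act on heme and iron. *Hmox1*, which splits heme, belongs to the NRF2 list and was already counted there. It read 11.88, 12.02 and 11.86 in ouabain and 10.67, 10.64 and 10.59 in K+-free medium, both above the control mean of 9.42. *Slc40a1*, ferroportin, the exporter of iron, read 11.08, 11.16 and 11.18 in ouabain and 9.87, 9.91 and 9.83 in K+-free medium, where the control mean was 9.76. *Cp*, a ferroxidase, and the siderophore-binding *Lcn2*, named after their values were seen, stood the other way, 1.81 and 3.10 log2 units higher in K+-free medium. *Lcn2* is also in the NF-kB list. Ferroportin rose in ouabain by 1.38 on the log2 scale and lay 0.11 above control in K+-free medium, which was under the fold limit (2.41-fold between the treatments, adjusted p = 4.73e-08).

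The largest difference toward ouabain was that of *Usp18*, which removes ISG15 from proteins and restrains interferon receptors. It read 7.63, 7.98 and 8.04 in ouabain and 5.95, 5.76 and 5.70 in K+-free medium (4.23-fold, adjusted p = 6.37e-07) against a control mean of 8.11, a loss in K+-free medium with little change in ouabain. Among the 20 largest differences toward ouabain were 3 regulators of chromatin. *Sgf29*, a reader of methylated histones in the SAGA complex, differed 3.64-fold, *Brms1l*, a subunit of histone deacetylase complexes, 3.13-fold, and *Phf10*, a subunit of a chromatin remodeler, 2.39-fold. *Phf10* read 11.50, 11.55 and 11.58 in ouabain and 10.32, 10.27 and 10.28 in K+-free medium, with a control mean of 11.5. *Sike1*, an inhibitor of the kinases that activate interferon genes, differed 2.85-fold, having lost signal against control under K+-free medium (-2.46) and less under ouabain (-0.95).

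Other genes of this group act on RNA, telomeres and transport. *Rpp25*, a subunit of the RNase P family, read 9.69, 9.96 and 9.62 in ouabain and 8.31, 8.36 and 8.42 in K+-free medium, the latter at the control mean of 8.37. *Qars1*, which charges tRNA with glutamine, differed 2.45-fold, *Yars2*, the mitochondrial enzyme for tyrosine, 2.41-fold, and the exonuclease *Rexo4* 2.59-fold. *Qars1* and *Rexo4* changed against control by -0.42 and -0.16 in ouabain and by -1.72 and -1.53 in K+-free medium. *Acd*, a telomere protein, differed 2.52-fold, *Lztfl1*, which controls ciliary traffic, 2.41-fold, *Zfyve21*, a membrane-binding FYVE protein, 2.56-fold, and *Slc25a40*, a mitochondrial carrier, 2.38-fold. In ouabain these genes changed against control by -0.32, -0.33, -0.62 and -0.26 in that order. In K+-free medium they changed by -1.65, -1.60, -1.98 and -1.51. *Aspn*, the matrix proteoglycan asporin, read 10.42, 10.26 and 10.51 in ouabain and 9.12, 8.96 and 9.0 in K+-free medium, and the homeobox factor *Hoxa5* read 11.37, 11.47 and 11.43 and 10.13, 10.12 and 10.14. Both rose above control in each treatment, further in ouabain (2.59-fold and 2.45-fold apart). Of the 20 genes, 3 had a mean in K+-free medium under the array median.

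Genes of DNA replication stood higher in ouabain in 15 of 31 cases (48.4%) and higher in K+-free medium in 1, with a median difference of -0.26. *Mcm7*, part of the helicase that opens DNA at origins, read 9.87, 9.93 and 10.03 in ouabain and 8.81, 8.86 and 9.01 in K+-free medium (2.07-fold, adjusted p = 9.29e-07) around a control mean of 9.75. *Cdc45*, which activates that helicase, differed 1.73-fold, *Orc1*, which marks origins, 1.55-fold, and *Rpa2*, which coats single-stranded DNA, 1.5-fold (adjusted p = 0.0971 by the methods' t-test). *Cdca7*, a target of Myc and E2F outside this list, read 8.38, 8.58 and 8.50 and 7.09, 7.08 and 7.10. Genes of G2 and mitosis were higher in ouabain in 12 of 25 cases and never in K+-free medium (median -0.20). The phosphatase *Cdc25b*, which releases entry into mitosis, read 8.80, 8.93 and 8.79 in ouabain and 7.70, 7.59 and 7.78 in K+-free medium, both under the control mean of 9.89. By the methods' t-test 8 and not 15 replication genes were higher in ouabain. Clock genes were higher in ouabain in 7 of 17 cases and in K+-free medium in 1 (median -0.21), the repressor *Cry1* with 8.07, 8.21 and 7.91 against 7.49, 7.33 and 7.27 (1.63-fold) and *Bhlhe40* the other way (1.41-fold).

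**Figure D3:**
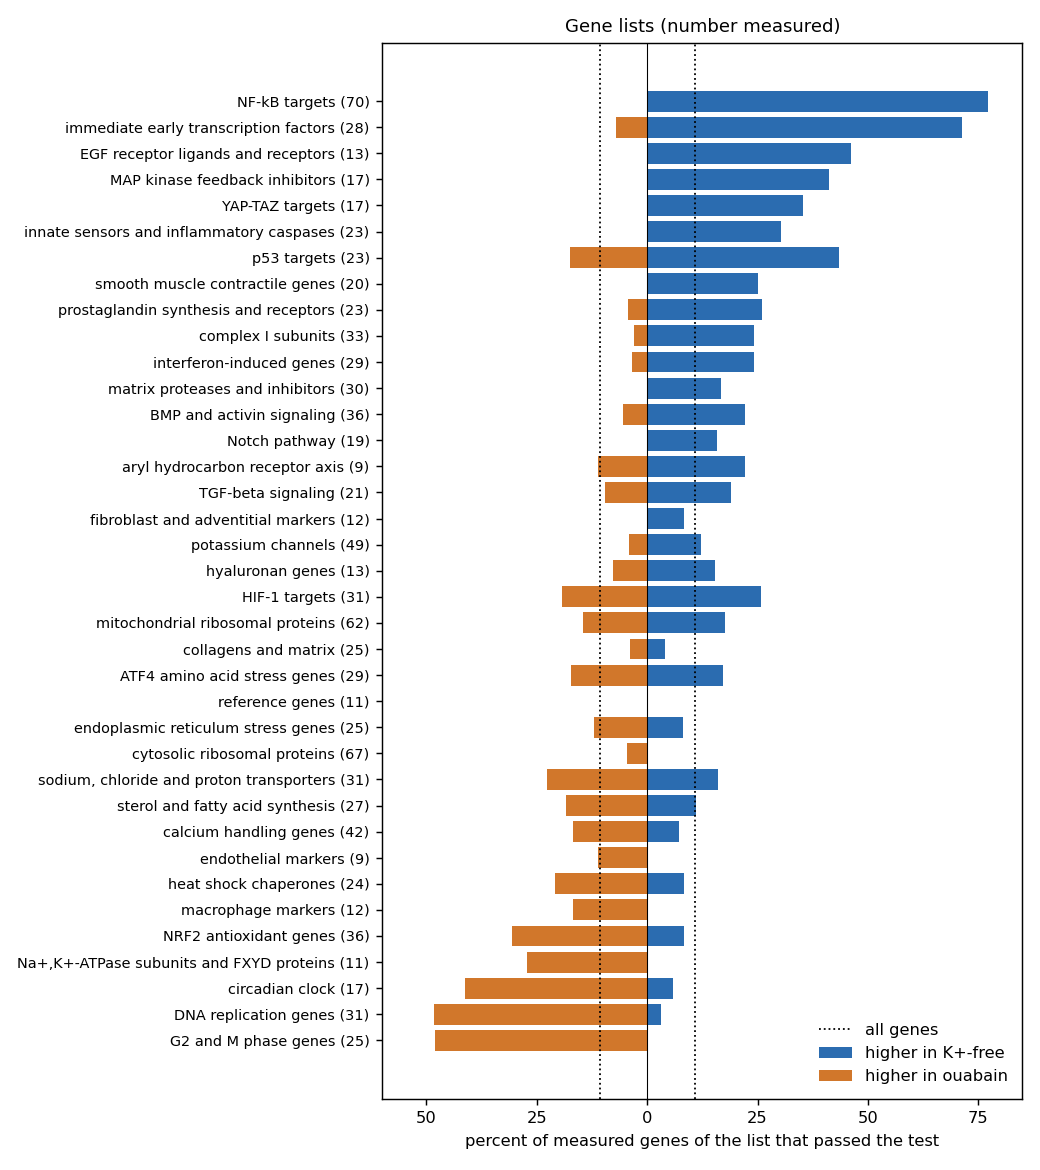
Percent of the measured genes of each of 37 lists (number measured in parentheses) that were higher in K+-free medium (right) or in ouabain (left), with dotted lines at the share over all genes (10.9% and 10.7%). NF-kB targets and immediate early genes reach furthest to the right (77.1% and 71.4%), and the lists for DNA replication and for G2 and mitosis furthest to the left (48.4% and 48.0%).

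The genes of the pump itself stood mostly within the limits. Of 11 subunits and FXYD regulators measured, 3 were higher in ouabain and none in K+-free medium (median 0.04). *Atp1b1*, a beta subunit that brings the pump to the membrane, read 11.50, 11.50 and 11.43 in ouabain and 10.89, 10.81 and 10.88 in K+-free medium (1.53-fold, adjusted p = 1.38e-05), against a control mean of 10.6. *Atp1b3* differed 1.23-fold, a call that ended with signals centred on reference genes and without K+-free replicate 2 (a difference of -0.26 in either case), and the regulator *Fxyd5* 1.26-fold.

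Carriers of Na+, Cl- and H+ differed in both directions, 5 of 31 higher in K+-free medium and 7 in ouabain with a median of -0.05 (4 in ouabain by the methods' t-test). *Slc9a3*, an exchanger of Na+ for H+, read 8.91, 8.99 and 8.90 in ouabain and 10.19, 10.21 and 10.02 in K+-free medium (2.31-fold, adjusted p = 3.94e-07). *Slc5a3*, which imports myo-inositol with Na+ and is known to answer osmotic stress, read 11.45, 11.24 and 11.54 in ouabain and 10.64, 10.65 and 10.66 in K+-free medium (1.69-fold the other way). *Slc12a7*, which lets K+ and Cl- out of the cell, read 9.36, 9.35 and 9.25 and 8.6, 8.72 and 8.53, the ouabain arrays lying at the control mean of 9.29. Among 49 genes of K+ channels 6 were higher in K+-free medium and 2 in ouabain (median 0.01). *Kcnj8*, *Kcnq5* and *Kcnh2*, which encode pore subunits, were 1.46-, 1.39- and 1.37-fold higher in K+-free medium. Their changes against control were -0.60, -0.62 and -0.46 in ouabain, where each fell, and -0.05, -0.14 and -0.00 in K+-free medium, where none passed. *Kcne4*, an accessory subunit that damps K+ channels, read 8.40, 8.14 and 8.24 in ouabain and 6.85, 6.46 and 6.96 in K+-free medium.

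In calcium handling 3 of 42 genes were higher in K+-free medium and 7 in ouabain (median -0.01). *Rcan1*, an inhibitor of the phosphatase calcineurin whose own gene calcineurin is known to induce, read 10.60, 10.65 and 10.49 in ouabain and 9.50, 9.35 and 9.35 in K+-free medium (2.25-fold, adjusted p = 3.29e-07) on either side of the control mean of 10.2. The channel subunits for store-operated entry went apart, *Orai2* being 1.81-fold higher in K+-free medium and *Orai3* 1.53-fold higher in ouabain. With signals centred on reference genes, or without K+-free replicate 2, 5 genes and not 3 were higher in K+-free medium. Among 20 contractile genes 5 were higher in K+-free medium (3 by the methods' t-test) and none in ouabain (median 0.12). *Mylk*, the kinase that starts contraction, read 8.32, 8.26 and 8.21 in ouabain and 8.70, 8.78 and 8.74 in K+-free medium, and *Pln*, the inhibitor of the calcium pump of the reticulum, 7.09, 7.43 and 6.99 and 8.05, 7.80 and 7.90 (0.0584 as the adjusted p of the methods' t-test).

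Upstream stretches of genes higher in ouabain are shown in the same way, for the glutathione, K+ channel and calcineurin genes described. *Rcan1* (chr11:45118342-45118473, - strand) holds a cyclic AMP response element and an AP-1 motif. *Gclm* (chr2:213031933-213032001, + strand) holds an antioxidant response element read on the opposite strand. In *Kcne4* (chr9:87695928-87696000, + strand) an E-box runs into an antioxidant response element, so the capitals there form a single run.
Rcan1: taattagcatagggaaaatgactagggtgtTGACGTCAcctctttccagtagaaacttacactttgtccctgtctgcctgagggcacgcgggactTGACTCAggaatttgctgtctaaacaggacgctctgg
Gclm: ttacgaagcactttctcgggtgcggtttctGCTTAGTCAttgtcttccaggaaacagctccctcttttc
Kcne4: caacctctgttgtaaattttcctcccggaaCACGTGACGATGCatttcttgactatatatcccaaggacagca

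Opposite changes, up against control in one treatment and down in the other with a difference between them, were rare. There were 67 genes (0.468% of those tested) up in K+-free medium and down in ouabain, and 45 (0.314%) down in K+-free medium and up in ouabain. For comparison, K+-free medium raised 17.8% and lowered 24.0% of all genes, and ouabain raised 17.5% and lowered 22.7%. Both changes are measured from the same 3 control arrays, so an error in the controls moves both, and each gene's own values are given side by side. Of the 67 genes 8 belong to the NF-kB list, which is 11.4% of its 70 members, and 59 do not. The differences ran from 0.55 to 5.33 (median 1.16) in the first group and from -1.86 to -0.57 (median -0.74) in the second.

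Besides *Bmp6*, *Gcnt2*, *Ass1*, *Rhob* and *Slco2a1*, the 10 largest differences of the first group were those of NF-kB list members. These were *Vcam1*, an adhesion molecule for leukocytes, *Lcn2*, a siderophore-binding lipocalin, and *Zc3h12a*, a nuclease that degrades cytokine transcripts. *Nfkb2*, an NF-kB subunit, and *Cflar*, an inhibitor of caspase-8, were the others. *Lcn2* read 7.15, 7.27 and 7.08 in ouabain and 10.25, 10.37 and 10.20 in K+-free medium (8.58-fold), with changes of -0.99 and 2.11 against control. *Cflar* read 8.78, 8.70 and 8.71 and 10.62, 10.51 and 10.65 (3.64-fold), with changes of -1.21 and 0.65. For *Bmp6* the change was 2.21 under K+-free medium against -1.67 under ouabain. In each of the 67 genes the K+-free and ouabain arrays did not overlap, which the limits that define the group make likely. Over all genes the share without overlap was 40.0%.

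The second group was led by *Sgf29*, which read 10.47, 10.59 and 10.60 in ouabain and 8.70, 8.64 and 8.71 in K+-free medium, with changes of 0.37 and -1.5. For *Kcne4* the change was -0.43 under K+-free medium (adjusted p = 0.0279) against 1.07 under ouabain. Its highest K+-free array (6.96) lay above its lowest control array (6.94). The K+-free mean of *Kcne4* (6.75) was just under the array median (6.77). *Cdca7*, *Timm9*, a chaperone of mitochondrial import, and *Rcan1* moved more in K+-free medium (-1.04, -0.94 and -0.81) than in ouabain (0.36, 0.29 and 0.36). *Yars2*, *Tmem199*, which helps to assemble the proton pump of vesicles, and *Rhpn2* moved more in ouabain (0.92, 0.63 and 0.72) than in K+-free medium (-0.34, -0.47 and -0.37). *Wipf3*, an actin regulator, and *Cd46*, which protects cells from complement, differed 2.12-fold and 2.04-fold. Whether one size exceeded the other within a gene was not tested.

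**Figure D4:**
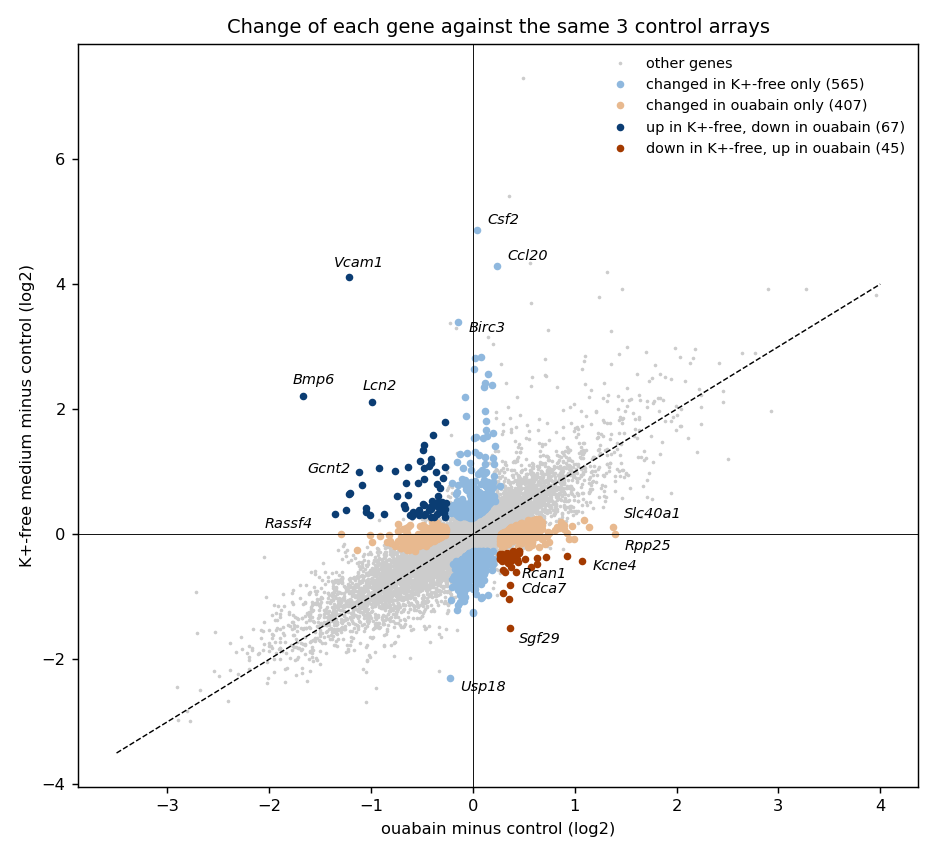
Log2 change of 14324 genes, with ouabain on the horizontal axis and K+-free medium on the vertical one, taken as the mean of 3 treated arrays less that of the 3 control arrays, with equal change on the dashed line. The 67 genes up in K+-free medium and down in ouabain lie at the upper left, led by *Vcam1* and *Bmp6*, and the 45 genes of the reverse kind at the lower right, with changes between -1.5 and 1.07.

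One-sided changes were more frequent. A gene was counted when it changed against control in 1 treatment, differed between the treatments, and in the other treatment stayed under 1.2-fold with an adjusted p of at least 0.05. Such genes numbered 565 (3.94%) for K+-free medium, of which 248 were higher and 317 lower there than in ouabain, and 407 (2.84%) for ouabain, of which 227 were higher and 180 lower than in K+-free medium. *Csf2*, *Ccl20*, a chemokine for lymphocytes, *Birc3*, an inhibitor of apoptosis, *Tlr2*, a receptor for bacterial lipoproteins, and *Ccl9* led the first set. All of these but *Ccl9* are in the NF-kB list, which held 12 of the 248 genes higher in K+-free medium. *Tlr2* read 7.41, 7.69 and 7.19 in ouabain and 10.23, 10.21 and 10.24 in K+-free medium around a control mean of 7.41. *Rpp25*, *Slc40a1*, *Klhl21*, an adaptor of ubiquitin ligases, and *Slc4a11*, a membrane transporter, led the rises of the second set. *Rassf4*, a Ras-associated protein, led its falls, with 8.78, 9.0 and 8.80 in ouabain and 10.22, 10.17 and 10.10 in K+-free medium where the control mean was 10.2. *Slc4a11* read 8.34, 8.46 and 8.48 in ouabain and 7.47, 7.40 and 7.33 in K+-free medium. No change past these limits in 1 treatment does not show that the gene was unaffected there.

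Lists of innate immunity were counted next. Of 29 interferon-induced genes 7 were higher in K+-free medium (4 by the methods' t-test) and 1, *Usp18*, in ouabain, with a median difference of 0.11. Next to *Gbp5* stood *Tap1*, which loads peptides for antigen presentation (1.89-fold), and *Ifih1*, a sensor of double-stranded RNA (1.61-fold), whereas *Mx1*, *Ifit1* and *Isg15*, named after their values were seen, differed by 0.01, 0.01 and 0.13 on the log2 scale and did not pass. Of 23 innate sensors and inflammatory caspases 7 were higher in K+-free medium and none in ouabain (median 0.14), and *Tlr2*, with the largest difference among them, is also in the NF-kB list. *Irak3*, which blocks Toll-like receptor signaling, read 7.86, 8.25 and 7.90 in ouabain and 9.45, 9.23 and 9.37 in K+-free medium (2.55-fold) around a control mean of 8.75. *Casp4* and *Tlr3* were 3.49-fold and 2.18-fold higher in K+-free medium but fell against control in both treatments. Their changes were -0.92 and -1.58 in K+-free medium and -2.72 and -2.71 in ouabain. Of the 23 genes, 9 fell and 8 rose against control in K+-free medium, and 11 fell and 4 rose in ouabain. Of 23 genes for prostaglandins 6 were higher in K+-free medium, among them *Ptgs2*, the inducible cyclooxygenase, which is also in the NF-kB list (1.53-fold), and the cytosolic phospholipase *Pla2g4a* (1.39-fold), and 1 in ouabain.

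Growth factor signaling was described by several lists. In BMP and activin signaling 8 of 36 genes were higher in K+-free medium (4 by the methods' t-test) and 2 in ouabain (median 0.08). *Bmp3* read 7.78, 7.95 and 7.90 in ouabain and 8.99, 9.03 and 9.12 in K+-free medium (2.25-fold), and *Smad9*, which carries the BMP signal to the nucleus, 7.49, 7.48 and 7.49 and 6.65, 6.57 and 6.73 (1.79-fold higher in ouabain). TGF-beta signaling gave 4 of 21 genes higher in K+-free medium and 2 in ouabain, with the inhibitor *Smad7* 1.58-fold higher in K+-free medium, and the Notch pathway 3 of 19 and none, with *Hes1* at 1.52-fold. *Pdgfra*, a PDGF receptor listed as a fibroblast marker, read 9.20, 9.35 and 9.22 in ouabain and 10.65, 10.64 and 10.55 in K+-free medium, while the other 11 fibroblast markers did not pass. Of 13 hyaluronan genes 2 were higher in K+-free medium, the link protein *Hapln3* (1.77-fold) and *Ugdh*, which makes the sugar precursor (1.64-fold), and 1 was higher in ouabain.

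Lists of stress and of housekeeping genes follow, each with the genes higher in K+-free medium first. Heat shock genes gave 2 and 5 of 24 (3 by the methods' t-test), the small chaperone *Hspb8* leading the latter (1.85-fold). Genes of endoplasmic reticulum stress gave 2 and 3 of 25, with the kinase *Eif2ak3* 1.55-fold higher in ouabain and *Ddit3*, the death-linked factor CHOP, 1.37-fold higher in K+-free medium. ATF4 targets gave 5 and 5 of 29, and sterol and fatty acid synthesis 3 and 5 of 27, with *Mvd* 1.68-fold higher in ouabain and *Fads1* 1.56-fold higher in K+-free medium. Against control each treatment lowered 22 of the 27 sterol genes and raised none. With signals centred on reference genes 7 sterol genes, and without K+-free replicate 2 5 of them, were higher in K+-free medium. Complex I subunits gave 8 and 1 of 33. The 8 fell to 1 by the methods' t-test and to 5 without ouabain replicate 1, ouabain replicate 3 or K+-free replicate 1. Against control 11 complex I genes fell and 4 rose in K+-free medium, and 16 fell and 2 rose in ouabain. Mitochondrial ribosomal proteins gave 11 and 9 of 62, which the methods' t-test reduced to 2 and 3, the 9 becoming 5 without ouabain replicate 2. Against control 44 of the 62 fell and 2 rose in K+-free medium, and 43 fell and 4 rose in ouabain. Cytosolic ribosomal proteins gave 0 and 3 of 67, collagens and matrix 1 and 1 of 25, matrix proteases 5 (2 by the methods' t-test, 3 without ouabain replicate 3) and 0 of 30, and the aryl hydrocarbon receptor axis 2 and 1 of 9. None of 11 reference genes passed.

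The motif counts extend what the printed stretches show. Of the 50 genes highest in K+-free medium 40 had a promoter in the table, and 18 of these (45.0%) held the kappaB motif, against 5.84% of all measured genes with a promoter. The share was 57.1% (12 of 21) for the members of the NF-kB list and 31.6% (6 of 19) for the others. Those 6 were *Gbp5*, *Ccl9*, *Pla2g2a*, *Elf3*, *Egr1* and *Map3k8*, named after the search. Of the 50 genes highest in ouabain 43 had a promoter, and 1 (2.33%) held it. The E-box stood in 8 of these 43 (18.6%) and in 7.89% of all, whereas 1 of the 40 promoters of genes highest in K+-free medium held one. The antioxidant element was found in 4 of the 43 (9.30%) and in 13.7% of all, and neither *Nqo1* nor *Bmp6* held any of the 5 motifs in this window. The AP-1 motif stood in 6 of the 40 (15%), 4 of the 43 (9.30%) and 6.23% of all promoters, and the cyclic AMP response element in 1 of the 40 (2.5%), 1 of the 43 (2.33%) and 2.45% of all. A match is a run of letters, not a site shown to bind a factor, and the absence of a match says nothing beyond this window.

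**Figure D5:**
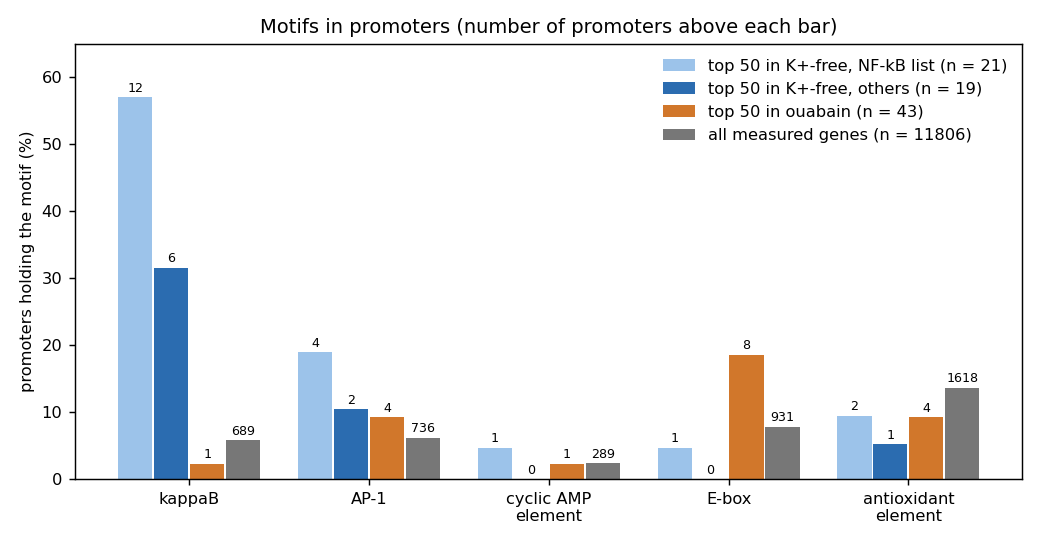
Percent of promoters (vertical axis) that hold each of 5 motifs on either strand, for the 50 genes highest in K+-free medium inside and outside the NF-kB list, the 50 highest in ouabain, and all measured genes, with the number of promoters above each bar. The kappaB motif stands in 57.1%, 31.6%, 2.33% and 5.84% of them in this order.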

How the data were processed

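Labelled total RNA from 9 cultures was run on Affymetrix Rat Gene 1.0 ST arrays, 1 per culture. For 27342 probe sets the authors deposited log2 signals made with RMA, and the labels also name Partek, without versions. Another passage of the methods names MAS5, and the values, from 4.22 to 14.6 with array medians within 0.1, were used as log2 without further scaling. RMA gives every array the same distribution of probe signals, so a shift of all RNA together cannot be seen. Arrays carry no counts, and the number of arrays limits the precision (median SE of a difference 0.068).

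A model with 1 mean per group was fitted with limma 3.58.1 (R 4.3.3 and data.table version 1.17.8) over 9 arrays, without a replicate block and with moderated variance (prior 4.59 degrees of freedom). P-values were adjusted over the whole table (Benjamini-Hochberg), and differences passed when this p lay under 0.05 and the fold exceeded 1.2. With 3 arrays a group, the smallest two-sided p of an exact permutation test is 0.1. The methods' analysis of variance had grouping variables that could not be rebuilt, and the t-test that the methods name for pairs of groups was run as an alternative. The fit was tested on simulated data first.

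Of 15097 probe sets with 1 gene symbol in the platform's annotation, 15067 matched a RefSeq identifier. For 499 symbols on more than 1 probe set the brightest was taken. Probe sets that carry more than 1 symbol (323) or lack one (11922) entered the counts without a name. The 37 lists hold 1149 entries, of which 1000 were measured. Members and lists were chosen with earlier results of these data known. Genes were named by rule: the 15 largest differences higher in K+-free medium outside the NF-kB list and the 20 largest higher in ouabain, among genes that passed and whose arrays did not overlap, the 10 largest opposite changes of either kind, the 5 largest of each one-sided set, up to 4 genes per list, the 4 largest NF-kB targets, and the pump subunits. Short probes may also bind related transcripts, which was not tested. Promoters were taken from RefSeq (GRCr8), and the figures were drawn with matplotlib 3.10.9 in Python 3.11.15 with pandas 2.3.3. Measurements of the study other than these arrays were not analysed here.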

Additional observations from a re-analysis of the deposited data

How the results depend on the processing

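Counts here are of probe sets. Main values were 2311 higher in K+-free medium, 2180 higher in ouabain, 89 and 63 opposite changes (up in K+-free medium and up in ouabain), and 888 and 610 one-sided changes (K+-free medium and ouabain). The methods' t-test gave 2227 and 2107 differences without adjustment and 1528 and 1368 after it, and 384 one-sided changes for ouabain. A fold limit of 1.5 left 647 and 502 differences, 17 and 1 opposite and 217 and 90 one-sided changes. No fold limit gave 190 and 169 opposite changes, and 0 and 0 one-sided ones by construction. Leaving out each array in turn gave 2162 to 2487 and 2073 to 2252 differences, 82 to 100 and 57 to 66 opposite, and 859 to 993 and 596 to 695 one-sided changes. Centring on reference genes turned the share of differences higher in K+-free medium from 51.5% to 59.9%, and other scalings gave 49.4% to 51.1%. The median of the sterol list (0.01) became -0.012 after a further quantile normalisation and ranged from -0.021 (without ouabain replicate 3) to 0.047 (without ouabain replicate 2) when single arrays were left out. Among the named genes no direction changed. The cause of these shifts was not tested.

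The methods say that treatments ran in parallel in each experiment, but not that the replicate numbers mark it. Deviations of same-numbered ouabain and K+-free arrays correlated at -0.0057, 0.231 and 0.309, and those of differently numbered ones at -0.284 to 0.036. Whether same-numbered arrays share an experiment was not tested. The numbers were left out of the main fit because the methods do not define them, and a replicate block was run as an alternative. The replicate block gave 2347 and 2240 differences, 89 and 63 opposite and 912 and 605 one-sided changes. Signals near background understate a fold, which bears on genes under the array median.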
